A study of Mus musculus with 6 samples.

Results

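Plasma cells and B cells leave a set of well known transcripts in bulk tissue, and 8 such genes were followed in the aortic valves of control and caAcvr1:Nfatc1Cre mutant mice. They are Igj, Mzb1, Xbp1, Pou2af1 and Tnfrsf17, which mark or shape antibody-secreting plasma cells, and Cd79a, Cd79b and Ms4a1, which belong to the surface of B cells. The set was chosen by the level of Igj, which was higher in every mutant library than in every control library, and the question was whether the other 7 genes followed it. All 8 genes were among the 23107 genes listed, and all 8 were among the 15354 that were tested, those with a minimum of 10 counts in 3 or more libraries. The values of Igj are therefore a description, with no test, and the tests given below are those of the other 7.

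The aortic valves came from outbred mice aged 4 months, and all 6 libraries were made from total RNA with 1 kit. The 3 mutants carried caAcvr1, a transgene for a constitutively active form of the BMP receptor Acvr1 that is switched on by Cre, together with Cre inserted at the Nfatc1 locus (Nfatc1Cre), which is active in the endocardium and the cells derived from it and at the junction of leaflet and wall. The 3 controls are labelled wild type, while the methods of the study allow 3 control genotypes that lack the transgene, the Cre or both. Neither source says which of these were sequenced or whether several animals were pooled, and p-values then measure only the spread between these libraries.

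B cells carry an antigen receptor whose signal passes through the CD79A and CD79B chains, and most mature B cells also carry CD20, the product of Ms4a1. On becoming plasma cells they lose much of this surface and turn into secretory cells, in which Xbp1 drives the genes of the endoplasmic reticulum and the protein of Mzb1 helps immunoglobulin to fold there. The J chain, encoded by Igj (now named Jchain), links IgM and IgA into polymers. Pou2af1 encodes a coactivator of octamer-binding factors in B lineage cells, and Tnfrsf17 encodes BCMA, a receptor through which plasma cells receive survival signals.

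Regulatory sequence in front of 5 of the 8 genes could be read from RefSeq, and 3 windows of 250 bases that end just before the annotated start are shown, because Igj was the gene that set the mutants apart while Pou2af1 and Tnfrsf17, of the same cell type, were among the genes whose levels were least like it. Sequences are from RefSeq on GRCm38.p6, 5′ to 3′ on the strand of the gene, and capitals mark each match, on either strand, to the octamer core TGCAAAT, to TGACGTG, here called the XBP1 motif because XBP1 can bind it, or to the E-box CANNTG, which is bound by E proteins of B cells among other factors. The window of Igj was chr5:88527898-88528147 on the minus strand, that of Pou2af1 was chr9:51213440-51213689 on the plus strand and that of Tnfrsf17 was chr16:11313559-11313808 on the plus strand.
Igj: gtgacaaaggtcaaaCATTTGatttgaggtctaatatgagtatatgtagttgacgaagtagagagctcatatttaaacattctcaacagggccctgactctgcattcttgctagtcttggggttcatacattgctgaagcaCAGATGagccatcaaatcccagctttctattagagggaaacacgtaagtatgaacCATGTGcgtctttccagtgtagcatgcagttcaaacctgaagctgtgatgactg
Pou2af1: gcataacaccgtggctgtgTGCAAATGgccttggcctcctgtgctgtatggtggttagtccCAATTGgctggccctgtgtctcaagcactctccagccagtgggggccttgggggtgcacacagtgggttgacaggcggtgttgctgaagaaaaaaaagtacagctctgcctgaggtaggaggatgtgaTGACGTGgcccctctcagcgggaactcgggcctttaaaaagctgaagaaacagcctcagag
Tnfrsf17: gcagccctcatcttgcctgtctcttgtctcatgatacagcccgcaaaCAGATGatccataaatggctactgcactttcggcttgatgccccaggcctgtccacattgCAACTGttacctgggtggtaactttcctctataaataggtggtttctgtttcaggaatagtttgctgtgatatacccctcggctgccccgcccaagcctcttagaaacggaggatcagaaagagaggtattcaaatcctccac

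In the Igj window there were 3 E-boxes, whose first bases lay 235, 109 and 54 bases before the start, and 0 matches to the other motifs. Pou2af1 had an octamer core that began 231 bases before its start, an XBP1 motif at 61 bases, and 2 E-boxes at 229 and 189 bases, the first of which overlaps the octamer core. The Tnfrsf17 window held 2 E-boxes, at 203 and 143 bases. Among 32851 RefSeq promoters of the same length, 3.56% held the octamer core, 1.65% held the XBP1 motif and 66.2% held an E-box. The full octamer ATGCAAAT, which contains the core, was found in 1.6% of these promoters and in 0 of the 5 windows read for these genes. Such matches describe letters in a window and not binding.

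Libraries held 46180666 to 55728854 assigned fragments in the controls and 32218343 to 53129459 in the mutants. Levels are given below as CPM, counts scaled to a common library size with the TMM factors of edgeR, and values listed for a group are always in the order of replicates 1, 2 and 3. A count of 0 would allow up to 0.0560 to 0.0942 CPM depending on the library (3 counts), a limit that covers counting error only. The summed CPM of 13 markers of valve interstitial and endothelial cells ran from 14623 to 18733 over the 6 libraries, and that of 12 cardiac muscle markers ran from 13871 to 47306, so that heart muscle RNA was present in each library and in unequal amounts.

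Igj lies on chromosome 5 from 88519809 to 88527891 (GENCODE annotation of GRCm38, as are all gene positions given). It was counted 31, 11 and 22 times in the controls and 164, 234 and 129 times in the mutants. On the CPM scale these counts were 0.578, 0.218 and 0.478 against 3.17, 5.92 and 4.05. Every mutant thus lay above every control, which is the pattern the gene was selected on. The control mean was 0.425 ± 0.186 CPM and the mutant mean 4.38 ± 1.41 CPM (SD, n = 3 each), a log2 fold change of 3.36 with a standard error of 0.47. It stayed between 3.05, without control replicate 2, and 3.65, without control replicate 1, when each library was left out in turn. This range and the standard error rest on the values by which Igj was selected, and are a description only.

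Of the 7 other genes, 0 passed an adjusted p of 0.05 in the quasi-likelihood test of edgeR, and all 7 had an adjusted p of 0.999. Over all genes tested the share called in this way was 0%, and in DESeq2, where it was 0.169%, again 0 of the 7 were called. At an unadjusted p under 0.05, 0 of the 7 passed, against 1.59% of all genes higher and 1.86% lower in the mutants. The groups overlapped in all 7, whereas in 4.04% of all genes every mutant lay above every control, and in 4.83% every mutant lay below. With 3 libraries against 3, an exact permutation test cannot give a two-sided p below 0.1. In bulk tissue fewer cells of a type and less RNA per cell cannot be told apart.

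**Figure D1:**
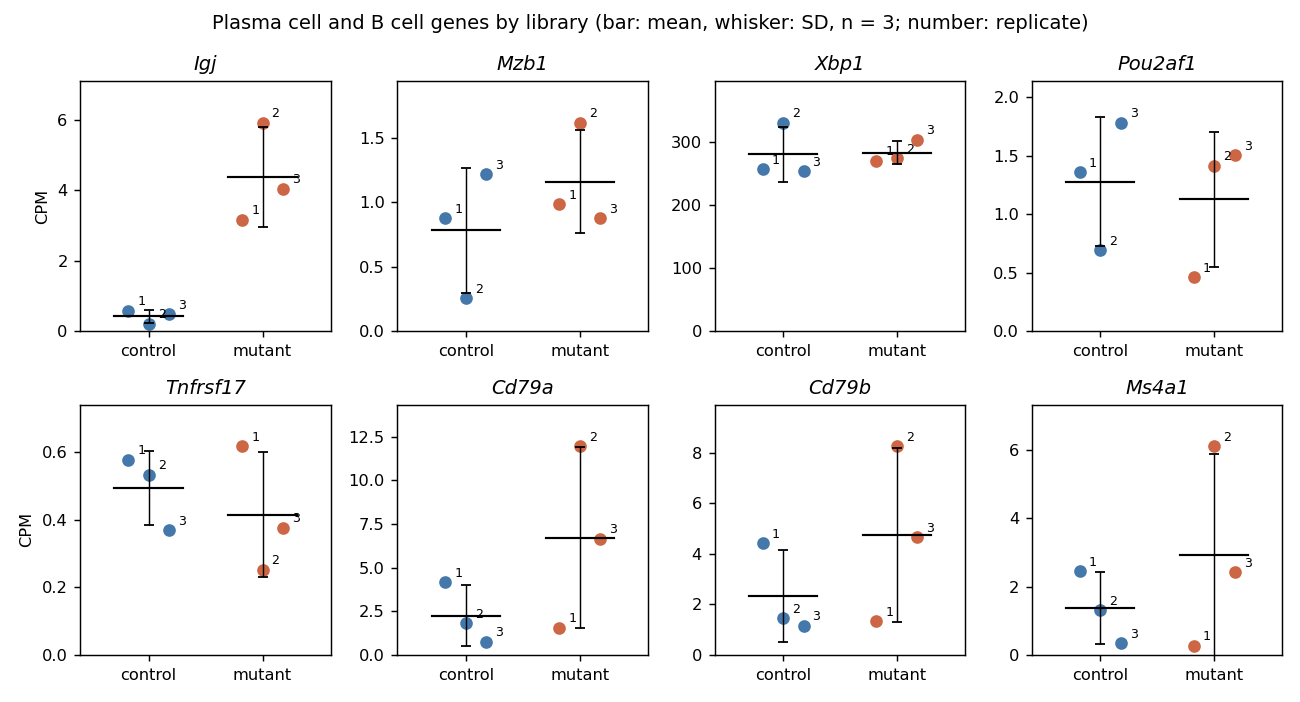
Levels of the 8 genes by library, 1 panel per gene, with CPM on the vertical axis from 0 and the control and mutant groups on the horizontal axis. Numbered points are replicates, the bar is the group mean and the whisker is 1 SD (the whisker of Ms4a1 in the mutants is cut at 0). Igj is the gene in which the groups do not overlap, with controls from 0.218 to 0.578 CPM and mutants from 3.17 to 5.92 CPM.

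Mzb1, which is listed under its older symbol 2010001M09Rik, encodes a resident of the endoplasmic reticulum that assists antibody secretion. In the valves it was counted 47, 13 and 56 times in the controls and 51, 64 and 28 times in the mutants, or 0.877, 0.257 and 1.22 CPM against 0.985, 1.62 and 0.879 CPM. Control replicate 3 lay above 2 of the 3 mutants, and the low value was that of control replicate 2. Its log2 fold change was 0.57 with a standard error of 0.60, and lay between 0.15 and 1.03 when single libraries were left out. A longer protein-coding gene annotated as SPATA24 shares 2100 bases of the Mzb1 locus on the same strand, so that reads of the pair could not be separated with certainty.

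Tnfrsf17, the BCMA gene (chromosome 16, 11313812 to 11320074), was counted 31, 27 and 17 times in the controls and 32, 10 and 12 times in the mutants. These were 0.578, 0.534 and 0.370 CPM against 0.618, 0.253 and 0.377 CPM. The highest and the lowest value were both mutants, and mutant replicate 2, in which Igj was highest, had the lowest Tnfrsf17. The log2 fold change was -0.24 with a standard error of 0.50, and its sign depended on that library.

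Of the regulators, Pou2af1 (chromosome 9, 51213708 to 51240080) was read at 1.36, 0.692 and 1.78 CPM in the controls and at 0.463, 1.42 and 1.51 CPM in the mutants (24 to 82 counts a library). A log2 fold change of -0.19 was fitted, with a standard error of 0.57, and it was 0.19 without mutant replicate 1 and 0.13 without control replicate 3. Here the lowest library was mutant replicate 1, in which Igj stood at 3.17 CPM. An annotated transcript within an intron, Gm47828, shares 3789 bases of its strand.

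Xbp1, the transcription factor of the secretory programme (chromosome 11, 5520659 to 5525893), is used by many cells and was far more abundant, at 258, 331 and 254 CPM in the controls and 271, 275 and 304 CPM in the mutants. The group means of Xbp1 were 281 ± 43.5 and 283 ± 18.2 CPM (SD, n = 3 each). The log2 fold change of 0.01 (standard error 0.14) was smaller than its error, and without each library in turn it lay between -0.06 and 0.15. Xbp1 was thus measured more tightly than the other genes of the set, and its highest and lowest libraries were both controls.

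In each of the 3 B cell surface genes the highest libraries were mutant replicates 2 and 3 and control replicate 1, unlike in Igj. Cd79a (chromosome 7, 24897381 to 24902197), a signalling chain of the antigen receptor, was counted 224, 91 and 35 times in the controls and 81, 472 and 212 times in the mutants. The corresponding levels were 4.18, 1.8 and 0.761 CPM against 1.56, 11.9 and 6.66 CPM. Mutant replicates 2 and 3 lay above all controls, and mutant replicate 1 lay below control replicates 1 and 2. The group means of Cd79a were 2.25 ± 1.75 and 6.72 ± 5.19 CPM (SD, n = 3 each), and its log2 fold change was 1.57 with a standard error of 0.83, between 0.86 (mutant replicate 2 left out) and 2.38 (control replicate 1 left out).

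Cd79b, the partner chain (chromosome 11, 106311341 to 106314762), was read at 4.42, 1.44 and 1.15 CPM in the controls and 1.33, 8.25 and 4.65 CPM in the mutants (53 to 326 counts a library). Its log2 fold change was 1.01 with a standard error of 0.75, which became 0.34 when mutant replicate 2 was left out and 1.86 when control replicate 1 was. The order of the 6 libraries was the same as for Cd79a. Ms4a1, which encodes CD20 (chromosome 19, 11249675 to 11266241), was read at 2.44, 1.31 and 0.348 CPM in the controls and 0.270, 6.10 and 2.42 CPM in the mutants (14 to 241 counts a library). Both the highest and the lowest library of Ms4a1 were mutants. Its log2 fold change of 1.09 had a standard error of 1.05 and was -0.05 without mutant replicate 2. An antisense gene that covers Ms4a1, 4930526L06Rik, had 5 counts over all 6 libraries.

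Summed, Cd79a, Cd79b and Ms4a1 came to 11.0, 4.55 and 2.26 CPM in the controls and 3.17, 26.3 and 13.7 CPM in the mutants, an 11.6-fold range over the libraries. Control replicate 1 and mutant replicates 2 and 3 were the 3 highest. The sum of Mzb1, Pou2af1 and Tnfrsf17, by contrast, was 2.82, 1.48 and 3.37 CPM in the controls and 2.07, 3.29 and 2.76 CPM in the mutants, with control replicate 3 the highest and control replicate 2 the lowest. Neither sum set the mutants apart from the controls as Igj did.

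The 3 libraries in which the sum of Cd79a, Cd79b and Ms4a1 was highest were also those with the most red blood cell transcripts. The summed CPM of 7 red blood cell genes was 10296, 2792 and 3697 in the controls and 1323, 9094 and 5273 in the mutants. The neutrophil list, with 11 of 12 genes listed, summed to 23.9, 9.97 and 8.0 CPM in the controls and 8.24, 29.9 and 19.998 CPM in the mutants, again with the same 3 libraries on top. The T cell list, summed below, had the same 3 libraries on top, and the macrophage and mast cell lists did not. In the red blood cell and neutrophil lists 0 of the genes listed had no count in any library. The part of blood in the valve samples in the levels of Cd79a, Cd79b and Ms4a1 was not tested.

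**Figure D2:**
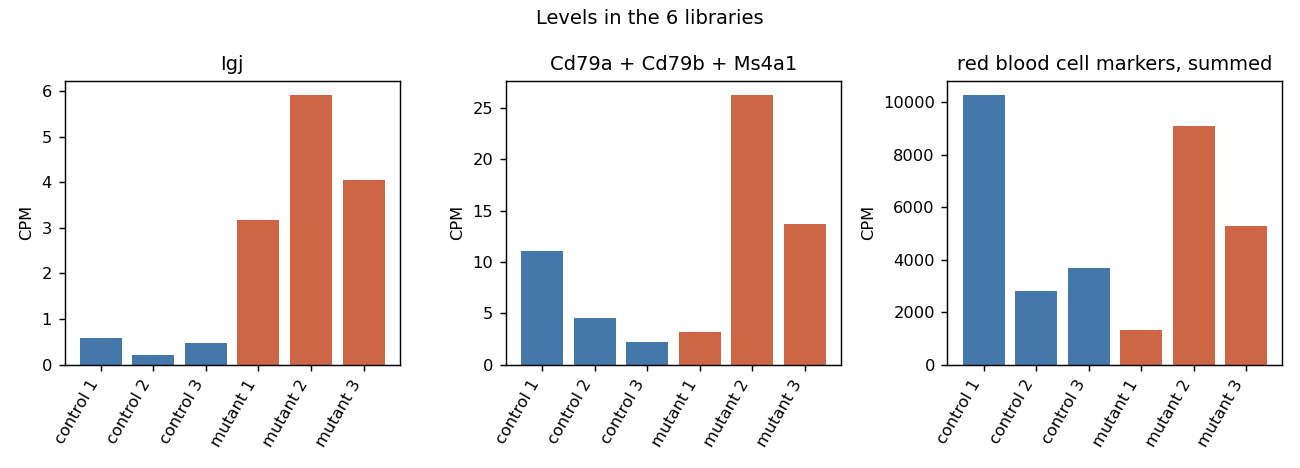
Bars from 0 give CPM in each of the 6 libraries for Igj (left), for the sum of Cd79a, Cd79b and Ms4a1 (middle) and for the sum of the red blood cell markers (right), controls in blue and mutants in red. The B cell sum is 11.0 CPM in control replicate 1, 26.3 CPM in mutant replicate 2 and 13.7 CPM in mutant replicate 3, the 3 libraries in which the red blood cell sum is also highest, at 10296, 9094 and 5273 CPM.

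Within each library, Igj was also set against the other genes. The count of Igj divided by that of Mzb1 was 0.660, 0.846 and 0.393 in the controls and 3.22, 3.66 and 4.61 in the mutants. Divided by that of Pou2af1 it was 0.425, 0.314 and 0.268 against 6.83, 4.18 and 2.69. For Tnfrsf17 the ratios were 1, 0.407 and 1.29 against 5.13, 23.4 and 10.8. In mutant valves there were thus several Igj fragments for each fragment of these 3 genes, and in control valves mostly fewer than 1. These ratios contain Igj itself and are given as a description.

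The ratios to the B cell surface genes overlapped between the groups in 2 of the 3 genes. Igj per Cd79a was 0.138, 0.121 and 0.629 in the controls and 2.02, 0.496 and 0.608 in the mutants, so that the groups overlapped. For Ms4a1 the ratios of 0.237, 0.167 and 1.38 in the controls and 11.7, 0.971 and 1.68 in the mutants overlapped as well. Igj per Cd79b was 0.131, 0.151 and 0.415 in the controls and 2.38, 0.718 and 0.872 in the mutants, with no overlap. In each of the 3 genes mutant replicate 1 had the highest ratio, the library in which Igj and the B cell sum both stood at 3.17 CPM.

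**Figure D3:**
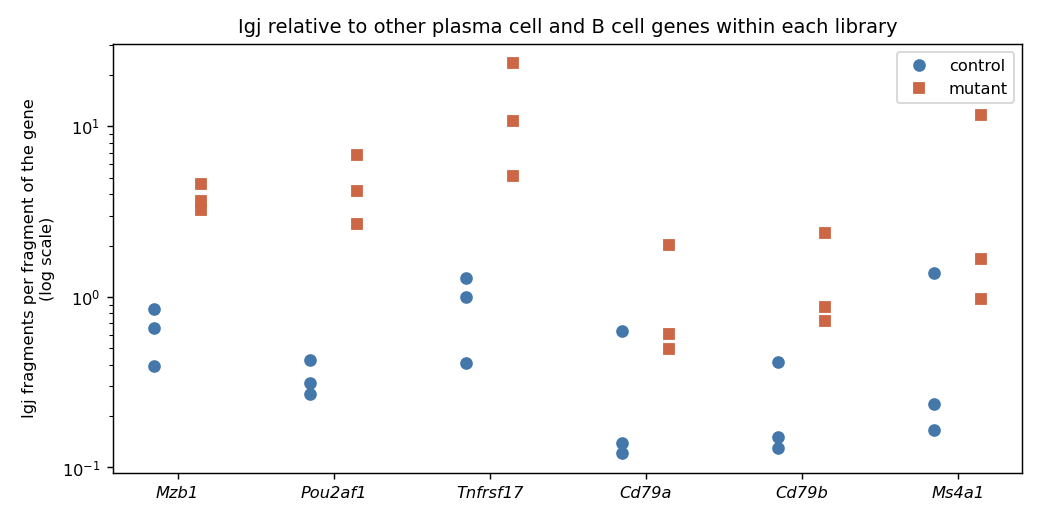
Count of Igj divided by the count of each other gene of the set, on a log axis, with 1 point per library, controls as blue circles and mutants as red squares, and Xbp1 left out. For Mzb1, Pou2af1 and Tnfrsf17 all mutants lie above all controls, with mutant ratios from 2.69 to 23.4 and control ratios from 0.268 to 1.29, and for Cd79a and Ms4a1 the groups overlap.

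Per length of transcript the 8 genes differed widely. FPKM values, which divide the CPM by the length of the merged exons in the annotation, had means over the 6 libraries of 86.9 for Xbp1, 3.08 for Cd79a, 2.47 for Cd79b, 0.954 for Igj, 0.800 for Mzb1, 0.558 for Tnfrsf17, 0.472 for Pou2af1 and 0.347 for Ms4a1. The order differed between the groups. Igj was the lowest of the 8 in the controls, at 0.169 FPKM on average, where Cd79b at 1.63 FPKM also stood above Cd79a at 1.54 FPKM. In the mutants Igj was at 1.74 FPKM, under the mean of Cd79a, at 4.61 FPKM, and of Cd79b, at 3.31 FPKM. With the longest transcript as the length, Mzb1 came before Igj and Ms4a1 before Tnfrsf17, so that the first 3 places of the order over all libraries did not depend on the length used. Below Xbp1, each gene differed from the next in the order by less than the larger SD of the pair over the 6 libraries.

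The genes whose profile over the 6 libraries was most like that of Igj were not on the plasma cell or B cell lists. Likeness was measured as the root mean square difference of log2 CPM, each gene centred on its own mean, and 15353 genes were ranked. The closest were Spock1 at 0.40, Ush1c at 0.54, Dapl1 at 0.67, Serpina3i at 0.72 and Lrrtm3 at 0.82. Most of these had few counts, with 2 to 43 in Spock1 and 0 to 24 in Ush1c. In Spock1, Ush1c and Serpina3i only the mutants reached the minimum count for testing, and every control lay below it. The ranking uses the values by which Igj was selected. It therefore cannot show which genes vary together with Igj, and is a description only. Among the set, Cd79a was at 1.32 (rank 178), Mzb1 at 1.33 (rank 182) and Cd79b at 1.39 (rank 295), followed by Xbp1 at 1.73, Pou2af1 at 1.81, Ms4a1 at 1.90 and Tnfrsf17 at 1.93 (rank 13688). A gene that did not vary at all would stand at 1.71, the spread of Igj around its own mean, and 4 of the 7 lay above that.

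Antibody genes proper could be followed only in part. Of 19 immunoglobulin chain genes considered, 4 were among the genes listed, all of the surrogate light chain. No constant region of a heavy or light chain was among these 4, and the genes not listed could not be followed. Vpreb1, a part of the receptor of B cell precursors, was counted 21, 17 and 19 times in the controls and 17, 8 and 6 times in the mutants. On the CPM scale every mutant lay below every control, as in 4.83% of all genes. Its log2 fold change was -0.64 with a standard error of 0.47 (adjusted p = 0.999 from edgeR). Vpreb3 was counted 16, 2 and 3 times in the controls and 3, 13 and 16 times in the mutants, with control replicate 1 and mutant replicates 2 and 3 again the highest. Igll1 had 1 count, in control replicate 2, and Vpreb2 had 0 counts in every library.

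Of 24 further plasma cell genes, 22 were tested and 0 were called. Their log2 fold changes were positive in 8 and negative in 14, with a median of -0.07, against 0.01 over all genes tested. In 0 of them did every mutant lie above every control, and in 2, Prdm1 and Txndc5, every mutant lay below, where over all genes the shares were 4.04% and 4.83%. Among those with the highest levels, Txndc5, a disulfide isomerase, was read at 344 ± 26.8 CPM in the controls and 301 ± 16.9 CPM in the mutants (SD, n = 3 each). Lman1, a cargo receptor of the secretory pathway, stood at 136 ± 5.99 and 136 ± 9.52 CPM, and Ssr4, of the translocon, at 107 ± 12.2 and 105 ± 10.02 CPM. Igj had a mean of 2.40 CPM over the 6 libraries, near that of Irf4 on this list at 2.41 CPM. How much of the level of the listed genes came from plasma cells was not tested. The median of the list therefore cannot show whether plasma cells changed.

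The defining regulators and surface marker of plasma cells were looked at besides, a choice made after their values were seen. Prdm1, which encodes the repressor Blimp-1, was read at 1.55, 1.34 and 2.04 CPM in the controls and 0.830, 1.09 and 0.157 CPM in the mutants, with 5 counts in mutant replicate 3. Its log2 fold change was -1.23 with a standard error of 0.64 (adjusted p = 0.999 from edgeR), and it became -0.78 when mutant replicate 3 was left out and -1.69 when mutant replicate 2 was. Sdc1, the syndecan CD138 that is also made by many non-immune cells, was read at 94.96, 150.1 and 93.2 CPM against 52.7, 96.7 and 80.9 CPM, a log2 fold change of -0.55 with a standard error of 0.27 that was -0.29 without control replicate 2. Irf4 stood at 2.37, 3.07 and 1.83 CPM in the controls and 2.82, 1.95 and 2.42 CPM in the mutants. None of these 3 genes was higher in all mutants, and Prdm1 was lower in all of them.

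Of 39 further B cell genes, 35 were tested and 0 were called. Log2 fold changes were positive in 28 and negative in 7, with a median of 0.29. That median was 0.09 when mutant replicate 2 was left out and 0.55 when control replicate 1 was. Mutant replicate 2 was the highest library in 23 of the 35 genes and the lowest in 0, and control replicate 2 was the lowest in 14. In 2 genes, Btk and Bach2, every mutant lay above every control, a share of the 35 near the 4.04% over all genes.

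Among the most abundant of the list were genes that other valve cells use too. Cd74, the invariant chain of antigen presentation, was read at 678 ± 269 CPM in the controls and 775 ± 119 CPM in the mutants (SD, n = 3 each), and Ebf1, also a factor of stromal cells, at 79.3 ± 8.46 and 66.3 ± 11.7 CPM. Cd24a, a surface protein of B cell precursors and of red cells, stood at 64.2 ± 6.25 and 66.6 ± 26.5 CPM. Pax5, the factor that keeps B cell identity and a gene named after its values were seen, was counted 2, 2 and 0 times in the controls and 0 times in each mutant.

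**Figure D4:**
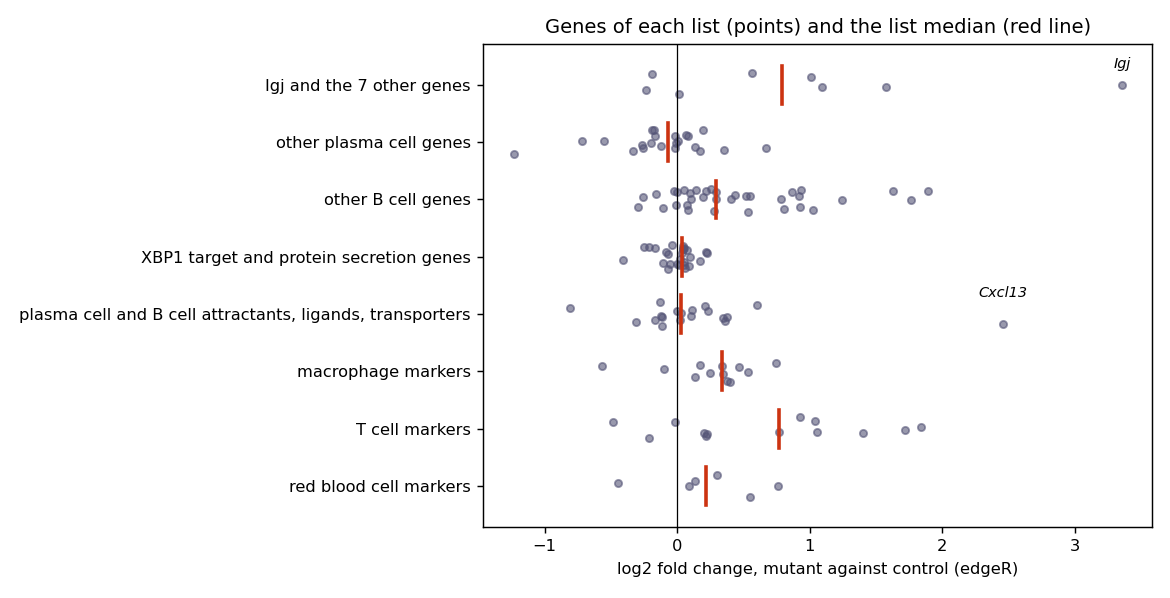
Log2 fold change from edgeR, mutant minus control, of each tested gene (points) in the set of 8, in the lists of further plasma cell, B cell, XBP1 target and attractant genes and in the macrophage, T cell and red blood cell lists, with a red line at the median of each list. Igj lies at 3.36, the medians of the further plasma cell and B cell genes lie at -0.07 and 0.29, and that of all genes tested is 0.01.

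The secretory programme that Xbp1 controls was followed in 27 genes, all of which were tested. In 16 the log2 fold change was positive and in 11 negative, with a median of 0.03, and 0 were called. Hspa5, the BiP chaperone, was read at 1122 ± 115 CPM in the controls and 1164 ± 135 CPM in the mutants (SD, n = 3 each). Hsp90b1 and Pdia3, a chaperone and a disulfide isomerase of the same compartment, had group means of 685 and 684 CPM and of 647 and 658 CPM. Ern1, which encodes the IRE1 sensor that splices Xbp1 mRNA, was read at 15.6, 16.3 and 16.4 CPM in the controls and 12.9, 13.6 and 9.83 CPM in the mutants. Its log2 fold change was -0.41 with a standard error of 0.16 (unadjusted p = 0.0361 and adjusted p = 0.999 from edgeR). Dnajb9 and Dnajb11 lay higher in every mutant, and Sel1l lay lower in every mutant, as Ern1 did. These are 2 of 27 genes in each direction, beside 4.04% and 4.83% of all genes.

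Signals that attract or keep B cells and plasma cells, and the transporters of antibody, formed the last list. Of 26 genes listed, 19 were tested, 11 had a positive and 8 a negative log2 fold change, and the median was 0.03. Cxcl13, which draws B cells through CXCR5, was counted 61, 94 and 34 times in the controls and 169, 158 and 425 times in the mutants. In CPM these were 1.14, 1.86 and 0.739 against 3.26, 4.00 and 13.3, with every mutant above every control. For Cxcl13 the log2 fold change was 2.45 with a standard error of 0.64, and 1.54 without mutant replicate 3. It was not called in edgeR (adjusted p = 0.999, and at least 0.9006 over the other edgeR and voom settings with all libraries), and in DESeq2 its adjusted p was 0.0329.

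The order of the mutants differed between the genes, as mutant replicate 3 had the highest Cxcl13 and mutant replicate 2 the highest Igj and Cd79a. Fcgr2b, the inhibitory receptor for IgG on B cells and macrophages, was read at 23.3, 16.4 and 19.8 CPM in the controls and 26.0, 26.7 and 23.8 CPM in the mutants. For Fcgr2b the log2 fold change was 0.36 with a standard error of 0.15 (unadjusted p = 0.0473 and adjusted p = 0.999 from edgeR). Cd86, a costimulatory ligand, was likewise higher in every mutant. Of the 19 genes tested these 3 were higher in every mutant and 0 were lower in every mutant, beside 4.04% and 4.83% of all genes, and 0 were called in edgeR. The most abundant genes of the list differed little, with group means of 279 and 285 CPM for the adhesion molecule Vcam1, of 261 and 265 CPM for the IgG transporter Fcgrt and of 197 and 181 CPM for the chemokine Cxcl12.

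Other cell types were followed by the summed CPM of marker lists. Macrophage markers, 12 in all, summed to 1673, 1513 and 1580 CPM in the controls and 1950, 2118 and 2104 CPM in the mutants, and in 6 of the 12 every mutant lay above every control, against 4.04% of all genes. The 13 T cell markers tested held 3 such genes, and the list summed to 18.4, 13.9 and 12.4 CPM in the controls against 17.3, 27.6 and 20.3 CPM in the mutants. For mast cells the sums were 104, 86.9 and 53.6 CPM against 145, 108 and 120 CPM, with 3 of 7 tested genes higher in every mutant. The 6 leukocyte pan-markers, by contrast, summed to 433, 388 and 431 CPM in the controls and 396, 539.9 and 418 CPM in the mutants, so that the groups overlapped, and 1 of the 6 genes was higher in every mutant. Plasmacytoid dendritic cell markers also overlapped, with 1279, 525 and 1175 CPM against 1467, 962 and 1137 CPM, and 0 of 6 tested genes were higher in every mutant. Most of each sum was Cox6a2, at 1010, 280 and 887 CPM against 1139, 681 and 900 CPM. Siglech, of the same list, stood at 1.62 to 2.91 CPM. The sum is thus mainly the level of 1 gene and cannot show whether these cells differed. In all 5 of these lists 0 genes were called, and 0 markers had no count in any library. Macrophage and mast cell sums, like Igj, did not overlap between the groups, and their part in the level of Igj was not tested. Smooth muscle markers summed to 6115, 13477 and 5943 CPM in the controls and 2275, 5629 and 6046 CPM in the mutants, and 3 of the 7 genes were lower in every mutant, beside 4.83% of all genes, with a median log2 fold change of -0.88. Adipocyte markers summed to 349, 528 and 357 CPM against 287, 259.6 and 418 CPM, with a median of -0.44. Most of each adipocyte sum was Fabp4, at 229, 373 and 316 CPM against 219, 222 and 304 CPM. In both lists all 7 log2 fold changes were negative, the sums overlapped between the groups and 0 genes were called. Their part in the levels of the plasma cell and B cell genes was not tested.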

How the data were processed

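Aortic valve RNA was measured in 3 control and 3 mutant libraries, grouped by the genotype in the labels. The authors aligned reads to mm10, with TopHat2 2.0.13 and Bowtie2 2.2.1 named in the submitters' processing notes, and deposited estimated counts per gene from Cuffdiff 2.1.1, not scaled for library size. Between 1.66% and 1.87% of values per library were not whole and were rounded. Gene reads were not stated to be assigned by strand.

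Tests were run with edgeR 4.0.16 in R 4.3.3 (TMM, quasi-likelihood F test, two-sided, no covariates) over genes that reached 10 counts in 3 or more libraries, with Benjamini-Hochberg adjustment over all of them at 0.05. Each standard error is the log2 fold change divided by the root of its F value, and the common dispersion gave a coefficient of variation of 0.278. The fit was tested on simulated counts. Alternatives were DESeq2 1.42.0, limma-voom (limma 3.58.1), other normalizations and filters, a replicate block and leaving out each library. Log2 CPM for the likeness of profiles used a prior count of 2. Positions came from GENCODE on GRCm38 and promoters from RefSeq.

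The genes and lists were chosen with earlier results of these data known. Named in each list were genes with an unadjusted p under 0.05 whose groups did not overlap and up to 3 more with the highest mean CPM, and for Igj the 5 genes with the nearest profile. Every immunoglobulin chain gene listed was named. Lists of other cell types were given by their sums, without naming genes. Btk, Bach2, Prdm1, Sdc1, Irf4, Pax5, Dnajb9, Dnajb11, Sel1l and Cd86 were named outside this rule, after their values were seen.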

Additional observations from a re-analysis of the deposited data

How the results depend on the processing

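Across the edgeR and limma-voom settings 0 genes were called, and at an unadjusted p under 0.05 edgeR had 529. DESeq2 called 26 genes, 21 higher and 5 lower, with Cxcl13 among them (log2 fold change 2.46) and 0 of the 7 genes other than Igj. The direction of 4 genes depended on single libraries. Leaving out each library in turn gave log2 fold changes of -0.058 to 0.15 for Xbp1, -0.48 to 0.19 for Pou2af1, -0.66 to 0.020 for Tnfrsf17 and -0.049 to 1.81 for Ms4a1, and the cause was not tested. For Mzb1, Cd79a and Cd79b the direction was the same in every setting run, and Cd79b ran from 0.34 to 1.86. The direction of Igj was fixed by its selection.

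With the replicate number as a replicate block, 0 genes were called and the log2 fold changes were 3.37 for Igj, 0.70 for Mzb1 and 1.64 for Cd79a. Deviations of libraries with the same number correlated at 0.289, 0.0822 and 0.0313. In pairs 1 and 3, though not in pair 2, the library of the same number was the best match. The numbers were not taken to pair the libraries in the main fit, and these values do not settle whether they do. In Mzb1, Pou2af1 and Tnfrsf17, with counts of 10 to 82 per library, standard errors of 0.60, 0.57 and 0.50 limit what could be detected. How far low counts or the spread between libraries set these errors was not tested.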
